A study of Mus musculus with 6 samples.

Results

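The nuclear genes for the subunits of the mitochondrial respiratory chain were compared between CXCL12-deficient and control stromal cells of mouse bone marrow. Members were taken by symbol from the table of counts per gene, as the Ndufa, Ndufb, Ndufc, Ndufs and Ndufv series, Sdha to Sdhd, the Uqcr series, Cyc1, the Cox4 to Cox8 series and the Atp5 series. The rule found 83 of 17128 genes, of which 35 were placed with complex I, 4 with complex II, 9 with complex III, 18 with complex IV and 17 with complex V. Ndufa4 and its paralogue Ndufa4l2, which carry complex I names, were placed with complex IV, where Ndufa4 is now known to reside. The rule also took 3 genes whose products are not subunits, and they were kept in the counts below: Cox4nb (current symbol Emc8, of the endoplasmic reticulum membrane complex), Atp5s (Dmac2l) and Atp5sl (Dmac2). It missed Ndufab1, the mitochondrial acyl carrier protein. Ndufab1 was at 59.7 ± 12.5 CPM (SD, n = 3) in controls and 68.9 ± 5.13 CPM (SD, n = 3) in deficient libraries. CPM are read counts scaled by the total of the library and its TMM normalization factor, so their sums differ between libraries.

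The respiratory chain passes electrons from NADH (complex I) and succinate (complex II) through ubiquinone to complex III, then through cytochrome c to complex IV, which reduces oxygen. Complexes I, III and IV pump protons out of the matrix, and complex V, the ATP synthase, lets them back in and makes ATP. The catalytic cores of I, III and IV hold proteins made from mitochondrial DNA, so each complex other than II is assembled from the products of both genomes. CXCL12-abundant reticular (CAR) cells are stromal cells of the marrow that secrete CXCL12, a chemokine that retains hematopoietic cells there.

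All 6 libraries came from femoral bone and marrow at postnatal day 21, after removal of the growth plates and digestion with collagenase, and each was made by SMARTer amplification of RNA from about 20000 sorted cells. All mice carried GFP knocked into one Cxcl12 allele, a floxed second Cxcl12 allele and the R26R-tdTomato reporter. The 3 control libraries held GFP+ cells of Cxcl12(GFP/fl); R26R(tdTomato/+) mice, which had no cre. The 3 CXCL12-deficient libraries held GFP+tdTomato+ cells of mice that had Col2a1-cre in addition. Col2a1-cre acts only in cells descended from Col2a1-expressing precursors, so the sort gate, the cre and the state of the floxed allele changed together and cannot be told apart. The labels give no sex, litter or batch and do not say that the libraries came from separate animals. The p-values therefore measure the spread between these libraries, which may be technical.

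Libraries held 20133299 to 28009257 counts, so that 1 read was worth 0.0357 to 0.0472 CPM. Cxcl12 itself, the targeted gene, was at 3747 ± 112 CPM in controls and 1289 ± 130 CPM in deficient libraries (SD, n = 3 each; log2 fold change -1.54, edgeR adjusted p = 0.00527). The summed level of 9 CAR stromal markers ran from 7381 to 8117 CPM in controls and from 7659 to 9045 CPM in deficient libraries. That sum includes Cxcl12 itself, whose lower level offsets the higher levels of other markers. The close ranges therefore do not show that the other markers were at equal levels. Of these 9, Ebf3, Adipoq and Cxcl14 were called higher and Cxcl12 lower, 8 were positive, and the median log2 fold change was 0.71. Markers of other marrow cells were present as well, and several lists were lower in the deficient libraries. The neutrophil sum ran from 15867 to 21655 CPM in controls against 2985 to 7469 CPM, with 11 of 13 genes called lower, and the macrophage and monocyte sum from 2169 to 3366 CPM against 504 to 929 CPM, with 6 of 13 called lower. In the macrophage and monocyte list 5 genes were positive (C1qa, C1qb, C1qc, Mrc1 and Cd163) and 0 were called higher. The log2 fold changes of C1qb and C1qc were 0.78 each. Called lower as well were 3 of 10 B lineage, 1 of 8 T and NK, 5 of 7 megakaryocyte and 5 of 10 endothelial genes, and 2 of 6 adipocyte genes were called higher. Adipoq is in both the CAR and the adipocyte list, so its call is counted in each, and Plin1, Cidec and Fabp4 were not called. Osteoblast genes summed to 3724 to 16176 CPM in controls and 6395 to 11943 CPM in deficient libraries, and chondrocyte genes to 174 to 1423 CPM and 127 to 482 CPM. Erythroid markers did not separate the groups, at 2664 to 3799 CPM in controls and 1671 to 7177 CPM in deficient libraries, with 0 of 11 called in edgeR and 0 at an unadjusted p below 0.05. No gene of these lists was at 0 in all 6 libraries. Their part in the respiratory chain values was not tested.

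No respiratory chain gene passed the test in either direction. In edgeR's quasi-likelihood test, 0 of the 81 tested members had an adjusted p below 0.05, where 4.57% of all 13926 tested genes did (0.639% higher and 3.94% lower in the deficient libraries). At an unadjusted p below 0.05 there was 1 member, Ndufs7, against 18.9% of all genes. DESeq2 called 0 members, with 0 at an unadjusted p below 0.05, while it called 8.82% of all genes. limma-voom called 0, with 1 at an unadjusted p below 0.05, and 4.48% of all genes. Since these are bulk libraries, fewer cells of a type and less RNA per cell cannot be told apart. In CPM, 3 members (3.70%) had groups that did not overlap, where 25.6% of all tested genes did.

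A p that misses the threshold does not show that levels did not differ, so the intervals are given beside it. The median log2 fold change (deficient against control) of the 81 members was 0.09, with quartiles of 0.00 and 0.15, and 62 were positive and 19 negative. Over all tested genes the median was 0.03 and the quartiles were -0.31 and 0.29. The 95% confidence interval lay wholly within 1.5-fold in either direction for 53 members (65.4%), against 18.3% of all tested genes, and within 2-fold for 76 members (93.8%), against 55.1%. For the 73 members whose mean level was above 20 CPM, every interval lay within 2-fold, and the outermost bounds were 0.608-fold and 1.74-fold. The median SD between libraries of one group was 0.22 on the log2 scale for members against 0.30 for all tested genes. The members were also more abundant, at a median of 85.9 CPM per kilobase of transcript against 8.80 for tested genes of known length. Spread and intervals were not compared with genes of like level. Leaving out the 3 genes that are not subunits left 78 tested members, 60 of them positive, with the same median of 0.09.

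**Figure D1:**
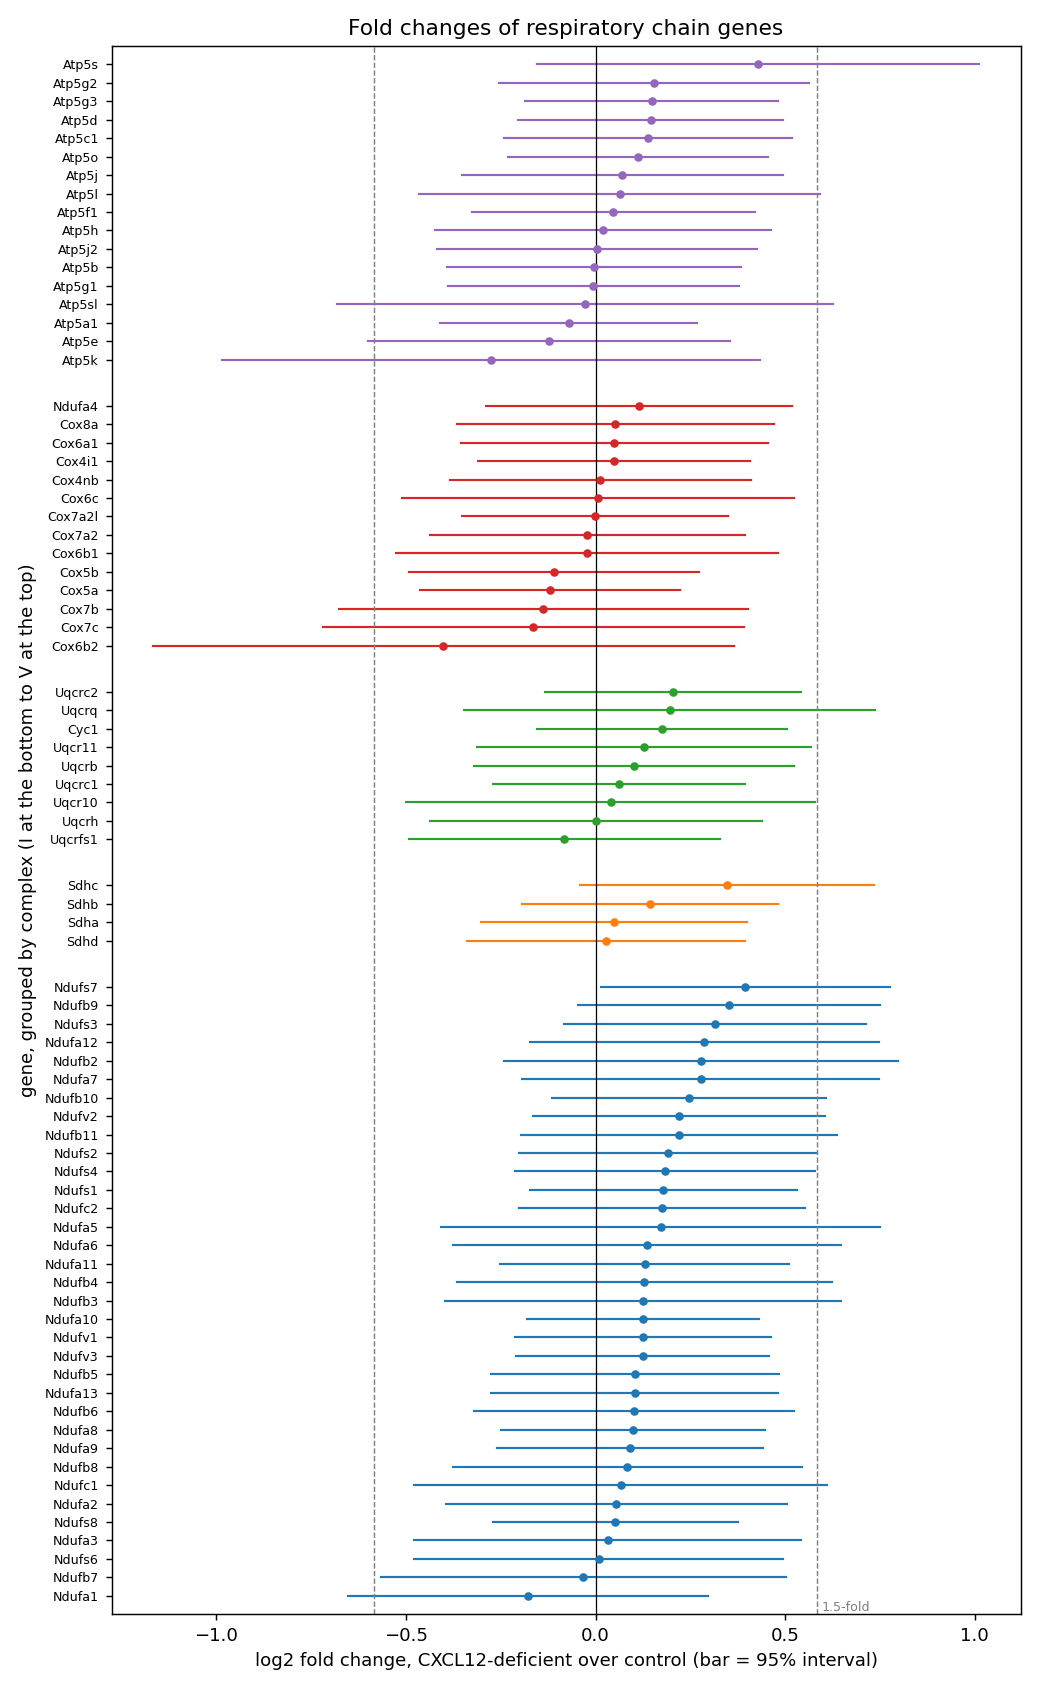
Log2 fold change (CXCL12-deficient against control) of the tested members averaging 5 CPM or more, by complex, each point with its 95% confidence interval from edgeR. Complex I sits mostly just above 0 (32 of its 34 tested members were positive), complex IV lies around 0, and no member passed the test.

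These are abundant transcripts for their size. Per kilobase of transcript, the median tested member stood at 85.9 CPM per kb against 8.80 for all tested genes with a known length, and 49 of the 81 members (60.5%) were in the top 10% of those genes. Summed over all members, the level was 8845, 9416 and 8299 CPM in the 3 control libraries and 10555, 8980 and 8360 CPM in the 3 deficient libraries. The groups overlapped: 2 of the 3 deficient sums lay within the range of the controls, and the first deficient library alone stood above them. The means were 8854 ± 559 CPM and 9298 ± 1131 CPM (SD, n = 3 each), a difference smaller than the SD within the deficient group. As a share of all counts, without the TMM factors, the members held 0.885, 0.957 and 0.873% in controls. In deficient libraries they held 1.01, 0.892 and 0.824%, so the third lay below all controls on that scale.

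Complex I, the NADH dehydrogenase, had the most members, nearly all with a positive sign. Of its 34 tested members 32 were positive and 0 were called, and the log2 fold changes had a median of 0.13 and ran from -0.18 to 0.39. Its summed level was 2286, 2357 and 1958 CPM in controls and 2835, 2357 and 2204 CPM in deficient libraries. The second library of each group had the same sum to the whole number, and the groups differed mainly through the third control library, which was the lowest, and the first deficient library, which was the highest. In the matrix arm, which holds the flavin and iron-sulfur centres, 16 of 16 members were positive (median 0.18). In the membrane arm, 16 of 18 were (median 0.12). Under scaling by total counts alone, 27 of the 34 and 13 of the 16 matrix arm members were positive. These signs changed when either of 2 libraries was left out. Without the third control 22 of 34 members of complex I were positive (median 0.04), without the first deficient library 24 of 34 (median 0.04). In the matrix arm 12 of 16 were positive in each of these refits.

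Ndufs7, an iron-sulfur subunit of the matrix arm near the ubiquinone site (mouse build GRCm38, chromosome 10, 80249121 to 80256794), had the largest positive value in complex I. Its level was 81.7, 90.8 and 76.9 CPM in controls and 127, 112 and 89.7 CPM in deficient libraries. The lowest deficient library lay just below the highest control, so the groups overlapped. Its log2 fold change was 0.39 (SE 0.17, 95% interval 0.01 to 0.78), with an unadjusted p of 0.0436 and an adjusted p of 0.245 in edgeR. With 1 library left out at a time, its adjusted p ran from 0.154 to 0.601. Ndufb9, a membrane arm subunit and the most abundant of complex I per kilobase at 155 CPM per kb, was at 98.1, 101 and 88.2 CPM in controls and 142, 130 and 95.1 CPM in deficient libraries (log2 fold change 0.35, SE 0.18, edgeR adjusted p = 0.326). Here too 1 deficient library lay within the control range.

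The largest negative values in complex I were small. Ndufa1, a membrane arm subunit encoded on the X chromosome, was at 28.2, 28.1 and 21.5 CPM in controls and 27.2, 20.5 and 21.2 CPM in deficient libraries (log2 fold change -0.18, 95% interval -0.65 to 0.30). Ndufb7, another membrane arm subunit, had a log2 fold change of -0.03 (95% interval -0.57 to 0.50). It was at 63.0, 64.5 and 39.4 CPM in controls and 66.8, 53.2 and 43.3 CPM in deficient libraries. These groups overlapped, and those of Ndufa1 overlapped as well. Ndufb8, a membrane arm subunit whose protein is a usual immunoblot marker of assembled complex I, was at 111, 107 and 79.1 CPM in controls and 130, 101 and 84.3 CPM in deficient libraries, with the groups overlapping. Ndufs3 and Ndufa10, which were picked out after their values were seen, were 2 of the 3 members whose groups did not overlap. Ndufs3, a core subunit of the matrix arm, was at 81.7, 78.2 and 59.3 CPM in controls and 104, 84.2 and 84.5 CPM in deficient libraries (log2 fold change 0.31, edgeR adjusted p = 0.384). Ndufa10 had a log2 fold change of 0.13 (edgeR adjusted p = 0.687). Neither passed the test.

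Ndufs5 could not be assessed. It had 1, 6 and 2 reads in the control libraries and 7, 1 and 0 reads in the deficient libraries, far below the other members of complex I, and it did not pass the filter on low counts. How reads that fit several genes were counted is not given in the sources used here.

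Complex II, succinate dehydrogenase, is the only complex encoded wholly in the nucleus, and it also works in the citric acid cycle. All 4 genes had positive log2 fold changes, between 0.03 and 0.35, and 0 were called. Scaled by total counts alone, 2 of the 4 were positive, and 3 were without the first control, the third control or the first deficient library. Sdhc, which anchors the enzyme in the membrane, had the largest. Its level was 131, 127 and 110 CPM in controls and 185, 127 and 157 CPM in deficient libraries. The second deficient library was level with the controls, so the groups overlapped (log2 fold change 0.35, SE 0.17, 95% interval -0.04 to 0.74, edgeR adjusted p = 0.317). Sdhd, the other membrane anchor, was at 194, 203 and 179 CPM in controls and 236, 176 and 176 CPM in deficient libraries, with 2 of the 3 deficient libraries below all controls and 1 above. Sdha, the flavoprotein that binds succinate, had a log2 fold change of 0.05 (95% interval -0.30 to 0.40). For Sdhb, the iron-sulfur subunit, it was 0.14 (95% interval -0.19 to 0.48). Per kilobase, Sdhd stood at 158 CPM per kb, Sdhb at 133, Sdha at 113 and Sdhc at 44.0.

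Complex III, the cytochrome bc1 complex, had 8 of 9 positive values, log2 fold changes from -0.08 to 0.20 with a median of 0.10, and 0 calls, and 8 of the 9 intervals lay within 1.5-fold. Without the third control 3 of the 9 were positive (median -0.01) and without the first deficient library 4 (median -0.01), and scaled by total counts alone 5 were. Uqcrc1, a core subunit and the most abundant of the complex at 302 CPM per kb, was at 493, 481 and 492 CPM in controls and 514, 561 and 455 CPM in deficient libraries. The control libraries lay close together and the deficient libraries fell on both sides of them (log2 fold change 0.06, 95% interval -0.27 to 0.39). Uqcrc2, its partner core subunit, was at 116, 118 and 119 CPM in controls and 158, 123 and 126 CPM in deficient libraries. It was the third member without overlap, with 1 deficient library well above the rest and the others just over the controls (log2 fold change 0.20, 95% interval -0.13 to 0.54, edgeR adjusted p = 0.522). Uqcrfs1, the Rieske iron-sulfur protein, was the 1 negative member of the complex at -0.08 (95% interval -0.49 to 0.33). The small subunits Uqcrq, Uqcr10 and Uqcrh had log2 fold changes of 0.20, 0.04 and 0.00.

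Complex IV, cytochrome c oxidase, had 7 of 17 tested members positive and 0 called, and its median log2 fold change was -0.02. Without the third control 1 of 17 was positive (median -0.14), without the first deficient library 2 of 17 (median -0.20) and without the second control 11 of 17 (median 0.07). Scaled by total counts alone, 2 of 17 were positive. Its summed level was 1169, 1278 and 978 CPM in controls and 1333, 1087 and 1009 CPM in deficient libraries, with overlapping groups and nearly equal means of 1142 ± 152 CPM and 1143 ± 169 CPM (SD, n = 3 each). Cox4i1, the common form of the largest nuclear subunit, was at 216, 218 and 177 CPM in controls and 231, 220 and 181 CPM in deficient libraries (log2 fold change 0.05, 95% interval -0.31 to 0.41). Cox6a1, the most abundant of the complex at 280 CPM per kb, had the same log2 fold change of 0.05. Ndufa4 (0.12), Cox8a (0.05), Cox6b1 (-0.02), Cox7a2 (-0.02) and Cox7b (-0.14) likewise had intervals that held 0. With Ndufa4 and Ndufa4l2 counted by their symbols in complex I, 33 of 36 members of complex I and 6 of 15 of complex IV were positive.

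Several subunits of complex IV exist as tissue forms, and in both groups the common form was the more abundant. Cox6a1 was at 157 ± 25 CPM in controls, whereas Cox6a2, the form of heart and skeletal muscle, was at 1.24 ± 0.558 CPM (SD, n = 3). Cox7a1, the muscle form of Cox7a2, had 1 to 6 reads in each library and did not pass the filter. Cox4i2, a form known from lung and for its response to low oxygen, was at 2.53, 4.63 and 2.79 CPM in controls and 2.29, 3.66 and 7.33 CPM in deficient libraries, with overlap. Cox6b2, known from testis, was at 5.11, 9.80 and 8.13 CPM in controls and 6.33, 5.71 and 5.37 CPM in deficient libraries. It overlapped as well and was far below Cox6b1, at 78.3 ± 13.2 CPM in controls (SD, n = 3).

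The 4 widest intervals among the tested members belonged to such rare forms and to Ndufa4l2, and the 2 largest differences to Cox6a2 and Ndufa4l2. Cox6a2 had 17, 36 and 35 reads in controls and 5, 17 and 7 in deficient libraries, or 0.607, 1.46 and 1.65 CPM and 0.208, 0.741 and 0.311 CPM. The highest deficient library lay above the lowest control (log2 fold change -1.55, SE 0.83, 95% interval -3.42 to 0.32, edgeR adjusted p = 0.357). Ndufa4l2, a paralogue of Ndufa4 known as a hypoxia-inducible gene, was at 6.60, 5.85 and 3.54 CPM in controls and 2.71, 3.58 and 3.86 CPM in deficient libraries, with overlap (log2 fold change -0.66, 95% interval -1.56 to 0.24, edgeR adjusted p = 0.427). For Cox4i2 the log2 fold change was 0.41 (95% interval -0.76 to 1.59), and for Cox6b2 it was -0.40 (95% interval -1.17 to 0.36). Cox7a2l, a relative of Cox7a2 that joins complexes III and IV into supercomplexes, was not rare, at 58.0 ± 6.35 CPM in controls and 58.0 ± 4.22 CPM in deficient libraries (SD, n = 3 each). Skeletal muscle markers summed to 10.3 to 12.4 CPM in controls and 13.2 to 25.9 CPM in deficient libraries, with 0 of 5 tested genes called, and 9 of the 12 listed genes were in the table with none at 0 in all libraries.

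**Figure D2:**
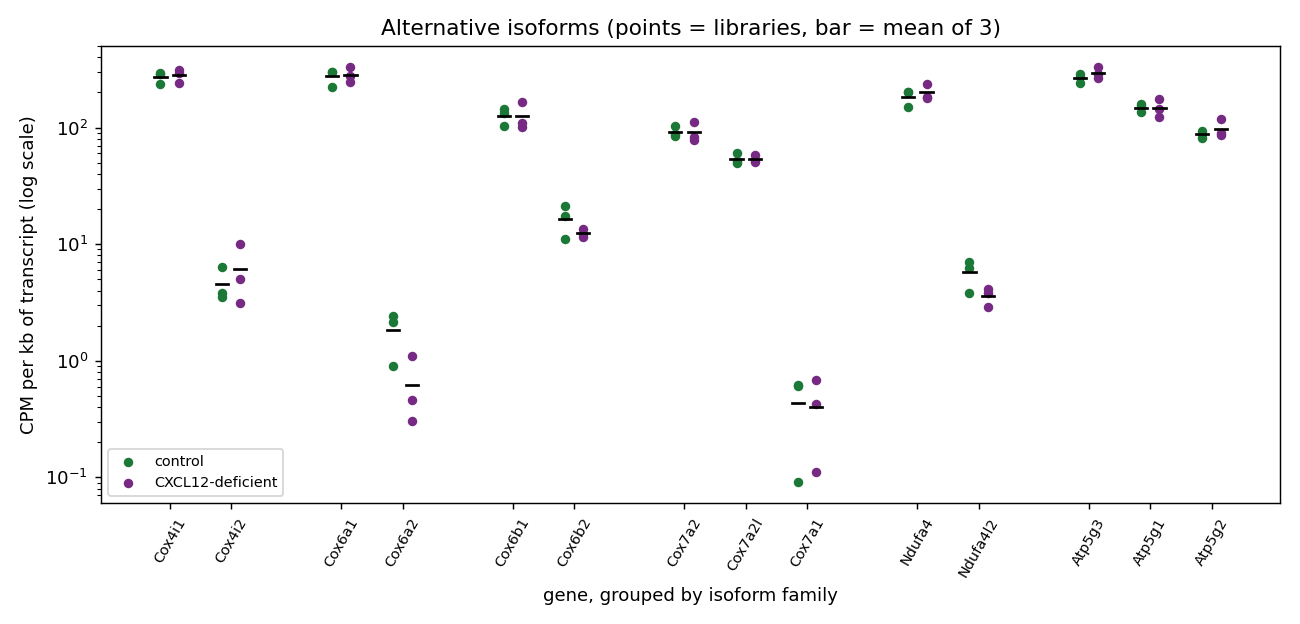
Level in CPM per kb of transcript on a log axis of the common and tissue forms of complex IV subunits, Ndufa4 and the c-ring subunit of complex V. Each point is 1 library of 3 control and 3 CXCL12-deficient libraries. The common forms stand well above the rare Cox4i2, Cox6a2, Cox6b2, Cox7a1 and Ndufa4l2 in both groups, while the 3 c-ring genes lie much closer together.

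Complex V, the ATP synthase, held the most abundant members, with 11 of 17 positive and 0 called. Their log2 fold changes ran from -0.28 to 0.43 around a median of 0.05, and that sign was not stable. The median was negative under scaling by total counts alone (-0.02), with the length trend removed (-0.05), and without the first control (-0.01), the third control (-0.03) or the first deficient library (-0.08). Atp5b, the catalytic beta subunit, was the only member in the top 1% of genes per kilobase, at 684 CPM per kb. Its level was 1243, 1354 and 1339 CPM in controls and 1494, 1322 and 1108 CPM in deficient libraries, which lay above, within and below the control range (log2 fold change -0.00, 95% interval -0.39 to 0.38). Atp5a1, the alpha subunit that alternates with beta in the F1 head, had a log2 fold change of -0.07 (95% interval -0.41 to 0.27). The F1 head as a whole had 2 of 5 positive members (median -0.00) and the peripheral stalk, which holds the head still, had 4 of 4 (median 0.06).

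The c-ring, which turns as protons pass, is encoded by 3 genes whose mature proteins are identical and which differ in their import sequences. Atp5g3 was the highest, at 194, 204 and 172 CPM in controls and 235, 191 and 206 CPM in deficient libraries, with overlap (log2 fold change 0.15, 95% interval -0.19 to 0.48). Per kilobase it stood at 266 ± 22.6 CPM per kb in controls, above Atp5g1 with 148 ± 11.9 and Atp5g2 with 87.9 ± 6.58 CPM per kb in controls (SD, n = 3). Atp5g1 and Atp5g2 had log2 fold changes of -0.01 and 0.15, so the order of the 3 genes was the same in both groups. The lowest and highest values in complex V belonged to small or minor members. Atp5k, the small e subunit of the membrane part, had a log2 fold change of -0.28 (95% interval -0.99 to 0.43), and Atp5e, the epsilon subunit of F1, had -0.12. Atp5s, which is not a subunit, was at 11.4, 18.3 and 12.4 CPM in controls and 16.2, 18.6 and 21.9 CPM in deficient libraries, with overlap (log2 fold change 0.43, 95% interval -0.15 to 1.01, edgeR adjusted p = 0.423).

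The levels of the members varied together from library to library more than by group. Of the 81 tested members, 51 had their lowest level of all 6 libraries in the third control and 59 had their highest in the first deficient library. Over all 13926 tested genes these counts were 2997 and 2604. Against its own mean over the 6 libraries, the median member was at -0.01, 0.10 and -0.24 on the log2 scale in the control libraries and at 0.28, -0.03 and -0.09 in the deficient libraries. The median of all other genes lay between -0.02 and 0.03. The same 2 libraries had the highest and the lowest TMM normalization factor (1.05 and 0.955), the third control had the fewest counts, and the first deficient library had the highest erythroid marker sum (7177 CPM). The part of these in the members' values was not tested. Without the third control 36 of the 81 members were positive (median -0.03), and without the first deficient library 39 (median -0.01), with 0 members called each time. Leaving out both, a pair chosen after seeing the data for its low and high values, gave 18 positive members by a choice that lowers the count.

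**Figure D3:**
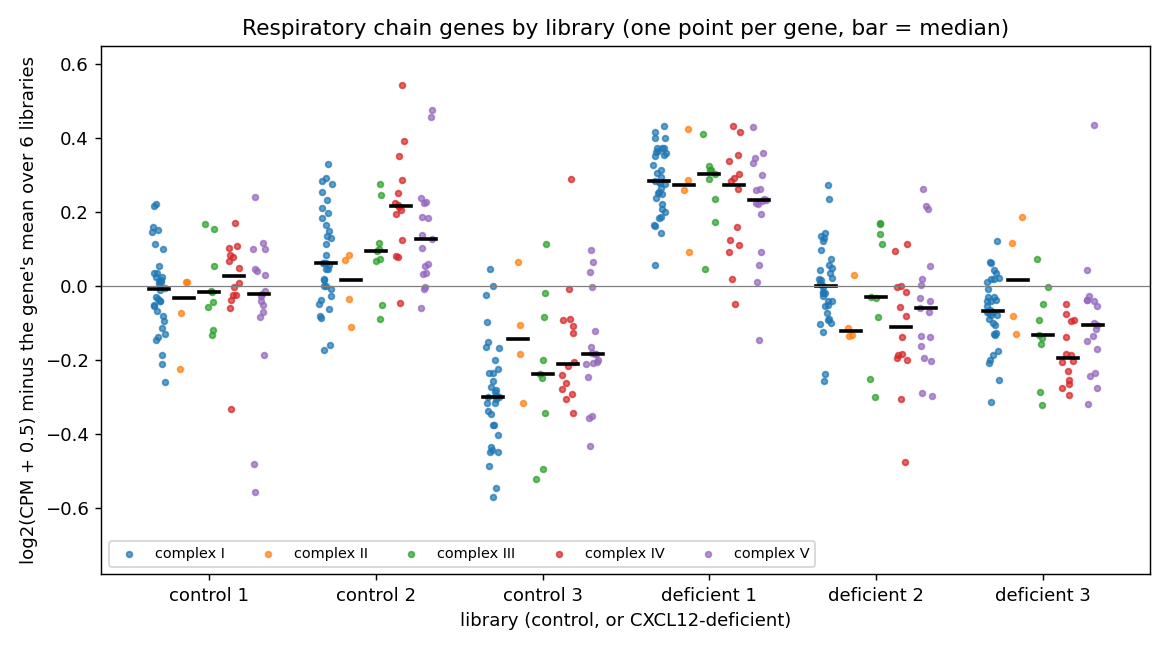
Deviation of each tested member averaging 5 CPM or more from its own mean over the 6 libraries (log2 scale), by library and complex. Bars mark the median of each complex. The third control (median of all members shown -0.24) and the first CXCL12-deficient library (0.28) stand apart from the other 4. Other genes are not drawn.

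Other short transcripts also stood away from their means in several libraries. The median transcript of a member was 763 bases long, against 2848 bases over all tested genes. Among other genes with transcripts of up to 700 bases (143 genes), the median deviation was -0.26 in the third control and 0.24 in the first deficient library, where the 32 members of that length had -0.29 and 0.29. In the same class the second control was at 0.18 for other genes and 0.20 for members, and the second deficient library at -0.10 and -0.07. From 1500 to 2500 bases the other genes (2659) had -0.08 and 0.06 and the members (13) had -0.08 and 0.18. Above 2500 bases the other genes (6244) had 0.06 and -0.05, and the 4 members had -0.15 and 0.21. The median deviation of other genes was thus large in the short classes, small from 1500 bases on and of the opposite sign in the longest class. The members lay close to the other genes in the shortest classes and further from them in the long ones, which held few members. When the trend on length was removed from each library, a refit chosen after seeing the data, 45 of 81 members were positive (median 0.01) and 0 were called. Positive were 25 of 34 in complex I, with 13 of 16 in its matrix arm, and 3 of 4 in complex II. In complex III 6 of 9 were positive, in complex IV 4 of 17 and in complex V 7 of 17.

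**Figure D4:**
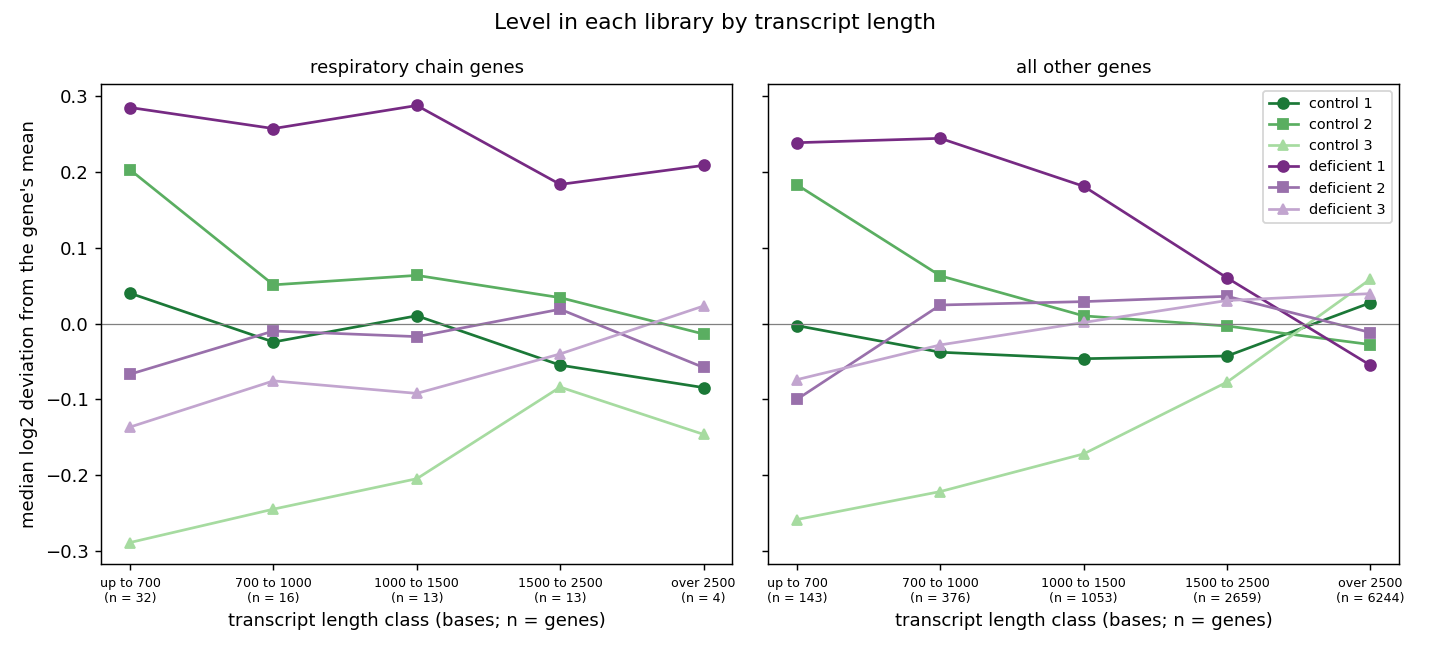
Median log2 deviation from the mean over the 6 libraries by class of transcript length (bases), for members and for all other genes that averaged 5 CPM or more, with 1 line per library. Among other genes the third control runs from -0.26 in the shortest class to 0.06 in the longest and the first CXCL12-deficient library from 0.24 to -0.05.

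Many nuclear genes of the respiratory chain are known to be driven by NRF1 (nuclear respiratory factor 1), GABP of the ETS family and YY1. The promoters of the members were searched for the letters these factors bind. Whether these letters have a part in the members' variation between libraries was not tested. Windows from 250 bases before to 50 bases after the start were taken from RefSeq (GRCm38.p6) and were at hand for 67 of the 83 members (73 windows). The NRF1 letters, GCGCA followed by any base and GCGC, searched on both strands as all others were, stood in 18 member windows (24.7%) against 4.60% of all 32851 windows. The ETS letters CCGGAAG were in 21.9% against 8.86%, and the YY1 letters AAGATGGCG, which also hold a start codon, in 12.3% against 1.40%. The GC box GGGGCGG (27.4% against 23.2%) and CCAAT (42.5% against 37.4%) differed less, and the estrogen-related receptor letters TNAAGGTCA were in 4.11% against 1.28%. The member windows were also richer in CpG, with a median of 19 against 7, and the NRF1 letters hold CpG themselves. Of the member windows, 36 had none of the NRF1, ETS or YY1 letters. Some members had several windows, so the windows are not independent. The same NRF1 site of Ndufa5 and the same YY1 site of Atp5sl, which is not a subunit, were counted in more than a single window. A match describes the letters of a window and is not a measured binding site.

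The NRF1 letters of the member with the highest CPM per kb among those holding them in each complex are shown 5′ to 3′ on the gene's own strand, with the matching bases in capitals, because NRF1 is the factor best known for driving genes of all these complexes.
Ndufa11 (complex I, membrane arm), chr17:56717692-56717721, plus strand: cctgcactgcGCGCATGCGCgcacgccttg
Sdhd (complex II), chr9:50603909-50603938, minus strand: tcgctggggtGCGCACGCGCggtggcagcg
Uqcrc1 (complex III), chr9:108936643-108936672, plus strand: cttccttacaGCGCTTGCGCctcagactcc
Uqcrc1 (complex III), chr9:108936668-108936697, plus strand: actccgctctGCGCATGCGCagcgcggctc
Cox6a1 (complex IV), chr5:115349101-115349130, minus strand: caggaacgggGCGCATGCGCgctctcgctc
Cox6a1 (complex IV), chr5:115349056-115349085, minus strand: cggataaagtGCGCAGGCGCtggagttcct
Atp5g3 (complex V), chr2:73911295-73911324, minus strand: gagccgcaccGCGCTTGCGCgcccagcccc

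The motif begins 60 bases before the start in Ndufa11, 79 before in Sdhd and 162 and 117 before in Cox6a1, and it lies just after the start in Uqcrc1 and Atp5g3. The capitals with TT in the middle are matches on the opposite strand. The factors themselves did not pass the test. Nrf1 was at 69.7, 80.6 and 80.3 CPM in controls and 57.4, 91.0 and 63.3 CPM in deficient libraries, with overlap (log2 fold change -0.12, edgeR adjusted p = 0.796). Gabpa, the DNA-binding subunit of GABP, had a log2 fold change of 0.09 and Tfam, a transcription factor that also packs mitochondrial DNA, had -0.03. Of 12 such regulators 0 were called in edgeR and 1 had an unadjusted p below 0.05 (Lrpprc, an RNA-binding protein of mitochondria, with -0.72 and an adjusted p of 0.140), 3 were positive and the median was -0.09. With 1 library left out at a time the number positive ran from 1 (without the first control) to 6 (without the first deficient library), and the median from -0.31 (without the second deficient library) to -0.03 (without the first).

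Around the complexes, genes that build or feed the chain gave few calls. Of 46 tested assembly factors, 0 were called in edgeR and 5 had an unadjusted p below 0.05, with 38 positive and a median log2 fold change of 0.18. Of 17 genes for electron carriers, such as cytochrome c and the enzymes of ubiquinone synthesis, 0 were called and 4 had an unadjusted p below 0.05, with 10 positive and a median of 0.16. Among them Cycs, cytochrome c, had a log2 fold change of -0.06. Gpd2, which passes electrons from glycerol 3-phosphate to ubiquinone, had -0.76 (edgeR adjusted p = 0.0886), and DESeq2 called it lower. Of 17 genes of the citric acid cycle and pyruvate dehydrogenase, 0 were called and 0 had an unadjusted p below 0.05, with 13 positive and a median of 0.10. The medians moved by over 1.5 times with some libraries left out. That of the assembly factors was 0.28 without the second control, that of the electron carriers 0.26 without the second deficient library, and that of the citric acid cycle 0.03 without the first deficient library and 0.05 without the first control. DESeq2 and limma-voom called 0 assembly factors, 0 regulators and 0 genes of the citric acid cycle as well. Of 9 genes for uncoupling and brown fat, 4 were tested and 0 called by any of the 3 tools, with 1 at an unadjusted p below 0.05 in edgeR. It was Slc25a4, the exchanger of ADP and ATP in the inner membrane, at 354, 420 and 315 CPM in controls and 563, 405 and 631 CPM in deficient libraries, with overlap (log2 fold change 0.56, edgeR adjusted p = 0.171).

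Glycolysis, the cytosolic route to pyruvate, was the only one of these lists with a call in edgeR. Of 15 genes 2 were called lower, where 3.94% of all tested genes were, and 0 were called higher, where 0.639% were. At an unadjusted p below 0.05 in edgeR there were 5, against 18.9% of all genes. Among these 5, Ldhb was positive, with a log2 fold change of 0.40. In the whole list 5 genes were positive, with a median log2 fold change of -0.31. Pkm2 (current symbol Pkm), the pyruvate kinase of most tissues outside liver and red blood cells, was at 875, 954 and 1019 CPM in controls and 499, 466 and 368 CPM in deficient libraries. Every deficient library was below every control (log2 fold change -1.10, SE 0.17, 0.468-fold, edgeR adjusted p = 0.0121). Gpi1, glucose 6-phosphate isomerase, was at 438, 566 and 583 CPM in controls and 306, 305 and 190 CPM in deficient libraries, again without overlap (log2 fold change -0.99, SE 0.22, 0.505-fold, edgeR adjusted p = 0.0390). Over all tested genes, 25.6% had groups that did not overlap in CPM. With 1 library left out at a time, the log2 fold change of Pkm2 ran from -1.19 to -0.98 and that of Gpi1 from -1.13 to -0.79. Pkm2 was called in 4 of these 6 refits and Gpi1 in 1 of 6. Neither was called without the second control (6 genes called higher and 154 lower over the whole table) or the third (0 higher and 74 lower, against 89 and 548 with all libraries). The neutrophil sum and the macrophage and monocyte sum were lower in the deficient libraries too, with 5 of 13 macrophage and monocyte genes positive. The part of these cells in the glycolysis values was not tested.

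**Figure D5:**
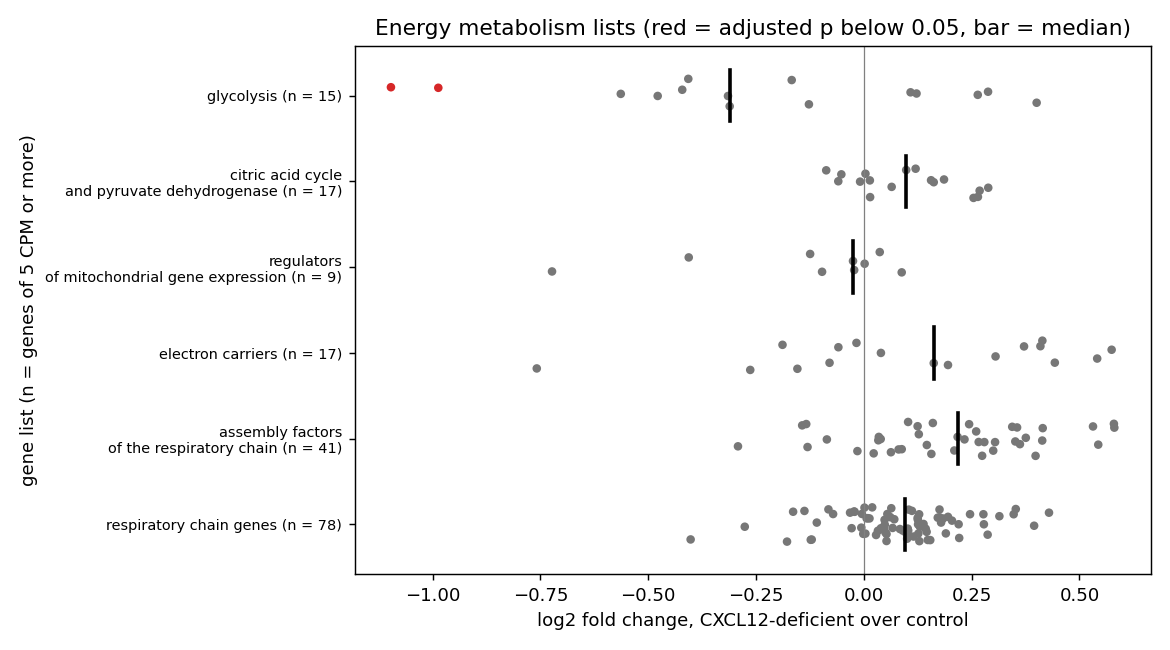
Log2 fold change (CXCL12-deficient against control) of the tested genes averaging 5 CPM or more, 1 point per gene, in the respiratory chain and the lists around it. The uncoupling and brown fat list is not drawn, and the median of the genes shown is marked for each list. The filter leaves out Cox6a2 (-1.55), Ndufa4l2 (-0.66) and Cox4i2 (0.41) of the respiratory chain. The respiratory chain and the citric acid cycle gather near 0 and glycolysis lies lower, with a median of -0.31 and the called genes Pkm2 and Gpi1 near -1.10 and -0.99.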

How the data were processed

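RNA sequencing measured 6 libraries, 3 per group. Each deposited count is a whole number of reads of a gene, left without normalization by the authors, and all main values rest on these counts. The authors' deposited regularized log2 values served 1 alternative. The submitters' processing notes name TopHat2 2.0.13, Bowtie2 2.2.1, HTSeq, DESeq2, FastQC, Cufflinks and Cuffdiff, and build mm10. They give no role for each, and no annotation or strand setting is given in the sources used here, which leaves genes with overlaps or close copies uncertain.

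Summing the 4 exon entries of Cxcl12 left 17128 genes of 17131 entries. The table used here held no mitochondrially encoded, Rpl, Rps, Mrpl or Mrps genes, so CPM are relative to totals without them. The filterByExpr filter (minimum count 10, minimum total 15) kept 13926 genes. CPM used TMM scaling, and the groups were compared with the robust quasi-likelihood test of edgeR 4.0.16 in R 4.3.3, adjusted by Benjamini-Hochberg over all tested genes at 0.05. The main edgeR fit, the limma-voom fit and the fit with the length trend removed were tested on simulated data, and the other alternatives were not. Alternatives used DESeq2 1.42.0, limma 3.58.1, other scalings and filters, and left out libraries. Transcript lengths and gene positions came from GENCODE M21 (the shortest principal transcript), where 2 members matched under a current symbol.

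Members, gene lists and markers were chosen with earlier results of these data known. Named are, per complex, the 3 members most abundant per kilobase and the 2 most positive and 2 most negative in log2 fold change, all tissue isoforms, all Sdh genes, and called genes of the other lists. Other genes were picked after their values were seen.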

Additional observations from a re-analysis of the deposited data

How the results depend on the processing

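Across 18 alternatives to the edgeR test as described, 0 respiratory chain members were called in either direction, and the smallest adjusted p of any member ran from 0.149 (without the third CXCL12-deficient library) to 0.472 (without the third control). Signs were less stable. Of 592 values of the 35 named and tested members, 73 had another sign than in the report, most often without the third control (9), without the first deficient library (8), without both (12, a pair chosen after seeing the data for the members' low and high values) and under scaling by total counts alone (8). Under that scaling 43 of 81 members were positive with a median of 0.02, and the median of all genes moved by -0.07. Over the single libraries left out, the number of positive members ran from 36 to 70 and the median from -0.03 to 0.16. The 2 glycolysis calls became 3 under DESeq2 and after removal of the length trend, 1 (Pkm2) when any 1 of the deficient libraries was left out, and 0 without the second or the third control or at an adjusted p below 0.01, while their log2 fold changes stayed between -1.19 and -0.79 in all refits without 1 library. No paired analysis was possible because the labels carry no replicate numbers. Counts were lowest for Ndufs5, Cox7a1 and Cox6a2, with at most 36 reads in a library, and the cause was not tested.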
